A study of Mus musculus with 9 samples.

Results

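The interleukin-1 (IL-1) ligands, decoys and receptors are 6 genes of the 23499 in the deposited tables, taken by name: the ligands Il1a and Il1b, the decoys Il1rn and Il1r2, the signalling receptor Il1r1 and its partner chain Il1rap. Their levels were read in blood of 4 healthy and 5 arthritic female mice of the 129SvE strain and, as pooled values, in a joint table. Seq-Well, which catches cells with barcoded beads in small wells, gave the transcripts of peripheral blood cells, and every barcode column carried a mouse and a cell class. Healthy mice 1 to 4 had a disease stage of 0, and arthritic mice 1, 3, 4, 5 and 6 were recorded at 1.5, 2, 1.5, 1.5 to 2 and 2 to 2.5. The samples are labelled as a rheumatoid arthritis model; how the arthritis was induced, the ages and any treatment are not stated.

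IL-1 alpha and IL-1 beta bind the receptor encoded by Il1r1, which then recruits the accessory chain from Il1rap and signals through MyD88 and NF-kB. Il1rn encodes the receptor antagonist, a ligand that occupies the receptor without signalling, and Il1r2 encodes a receptor that binds the ligands but lacks the signalling domain. IL-1 beta from myeloid cells is a known mediator of joint inflammation, and the antagonist is used as an arthritis drug.

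Depth was unequal: the healthy mice gave 26 to 201 columns and 330950 to 2053973 units of signal, against 502 to 1027 columns and 8350920 to 13557201 units in the arthritic mice. The columns were not independent: 1313 of 4310 repeated another exactly, and 59 of 302 columns from healthy mice had an exact copy among the arthritic ones. A further 1 barcode was found in more than 1 mouse. Hemoglobin transcripts took between 0.630% and 55.0% of a mouse's signal. The deposited values are whole-number sums per gene and column, and a column may hold more than a single cell, so a share of columns is not a share of cells. Values are given as SPM, the summed signal of a gene in each 1000000 units, and between groups after scaling with TMM factors, which even out composition over the genes. Blood values are sums over many cells, so fewer cells of a type and less RNA per cell cannot be told apart.

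Both ligand genes lie on chromosome 2 on the minus strand in the GRCm38 build, Il1a at 129299610 to 129309972 and Il1b at 129364570 to 129371139, with 54597 bases between them. Il1rn is on chromosome 2 at 24336853 to 24351494. The receptor genes Il1r2 (40074079 to 40125231) and Il1r1 (40225080 to 40317257) are neighbours on chromosome 1, with 99848 bases between them, and Il1rap is on chromosome 16 at 26581704 to 26730117. The 250 bases before the start of 4 members, from RefSeq on GRCm38.p6, are shown because these are both ligands and both decoys. For Il1r2 the RefSeq start lies inside the gene interval given above. Its window, 40085843 to 40086092, is therefore not the sequence before 40074079. Capitals mark matches, on either strand, to the TATA box, E-box, AP-1, kB, C/EBP and PU.1 motifs, whose letters are given after the sequences.
Il1a, minus strand, chr2:129309973-129310222: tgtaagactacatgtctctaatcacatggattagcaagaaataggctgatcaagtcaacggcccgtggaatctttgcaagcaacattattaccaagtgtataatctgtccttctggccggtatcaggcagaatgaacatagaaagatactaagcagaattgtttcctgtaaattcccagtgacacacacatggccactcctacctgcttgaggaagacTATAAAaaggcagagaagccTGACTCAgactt
Il1b, minus strand, chr2:129371140-129371389: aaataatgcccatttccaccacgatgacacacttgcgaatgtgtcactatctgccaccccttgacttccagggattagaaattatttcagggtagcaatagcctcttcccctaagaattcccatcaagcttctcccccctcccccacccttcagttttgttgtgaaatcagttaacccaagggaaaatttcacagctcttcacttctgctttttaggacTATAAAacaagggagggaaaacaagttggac
Il1rn, the most upstream of 3 listed starts, plus strand, chr2:24336610-24336859: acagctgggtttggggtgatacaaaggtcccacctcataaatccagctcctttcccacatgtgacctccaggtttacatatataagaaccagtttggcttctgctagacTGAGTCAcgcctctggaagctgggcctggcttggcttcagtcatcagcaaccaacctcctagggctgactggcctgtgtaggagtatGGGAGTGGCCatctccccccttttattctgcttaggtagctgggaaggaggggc
Il1r2, plus strand, chr1:40085843-40086092: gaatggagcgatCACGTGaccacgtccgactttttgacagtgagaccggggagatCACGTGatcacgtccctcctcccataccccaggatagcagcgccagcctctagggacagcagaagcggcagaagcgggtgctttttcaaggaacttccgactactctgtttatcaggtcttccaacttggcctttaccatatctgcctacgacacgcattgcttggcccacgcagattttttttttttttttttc

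Both ligand windows held the TATA box, TATAAA, beginning at -32 from the start in Il1a and at -31 in Il1b. This 6-letter match stood in 12.4% of the 32851 listed windows of the same length. Il1a and Il1rn held an AP-1 match, TGANTCA with N for any base (6.75% of all windows). Il1rn also held a kB match, GGG and CC with any 5 bases between, which 45.8% of all windows held. The Il1r2 window held the E-box, CACGTG, at 2 places, beginning at -238 and -195 from the start (6.02% of all windows held at least 1). None of the 4 windows held the C/EBP match, TTGCNNAA (9.56% of all windows). None held the PU.1 match, AGGAAGT, either (7.69%). A match in these letters is a description of the window only.

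The first comparison asked whether any member differed between healthy and arthritic blood over all cells. None of the 4 members that could be tested (Il1b, Il1rn, Il1r2 and Il1rap) was called, and Il1a and Il1r1 were too low to enter the fit. The background was as low: limma on log2(scaled SPM + 1) called 4 of 8459 genes (0.0473%) at a Benjamini-Hochberg adjusted p below 0.05. Of these 1 was higher in arthritic mice and 3 were lower. At an unadjusted p under 0.05 there were 1133 genes, none of them a tested member. Without arthritic mouse 6 the count of called genes was 64, and without each of the other mice 0 to 3.

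Il1b, the gene of the main circulating ligand, stood at 230.1, 50.8, 333 and 359 scaled SPM in healthy mice 1 to 4. It stood at 121, 119, 321, 247 and 393 in arthritic mice 1, 3, 4, 5 and 6. The groups overlapped, with the lowest value in healthy mouse 2 and the highest in arthritic mouse 6. The means were 243 ± 139.9 and 240.2 ± 121 (SD, n = 4 and 5). Arthritic minus healthy was 0.14 ± 0.57 on the log2 scale (SE; adjusted p = 0.914 in limma), where all tested genes had a median of 0.26.

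Il1rn, the receptor antagonist gene, stood at 14.1, 4.23, 59.0 and 80.3 scaled SPM in the healthy mice, from 6, 11, 14 and 36 units of signal. In the arthritic mice it stood at 19.6, 13.3, 62.1, 73.0 and 21.4. Each group held 2 high mice, healthy 3 and 4 and arthritic 4 and 5, and low mice beside them. The log2 difference was 0.34 ± 0.79 (limma adjusted p = 0.847).

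These 4 mice were also those with most hemoglobin signal, as the plot against hemoglobin share shows. Hemoglobin took 55.0%, 41.5%, 33.8% and 50.0% of the signal of healthy mice 3 and 4 and arthritic mice 4 and 5, and between 0.630% and 17.2% in the other 5. Before TMM scaling Il1rn was likewise higher in these 4 mice, at 40.7 to 64.2 SPM, than in the others, at 5.36 to 29.0. With hemoglobin share as a covariate the Il1rn difference was 0.97 ± 0.37 (limma adjusted p = 0.237). The part of red cell transcripts in the Il1rn level was not tested beyond this fit.

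**Figure D1:**
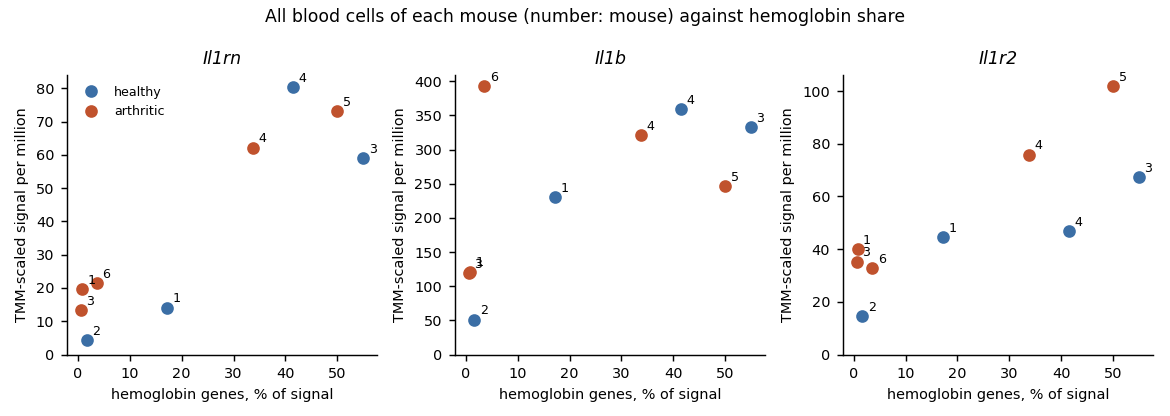
Scaled SPM of Il1rn, Il1b and Il1r2 over all blood cells (y axes) against the percent of each mouse's signal from hemoglobin genes (x axes), 1 point per mouse, with the mouse number beside it. For Il1rn the 4 mice above 30% hemoglobin lie between 59.0 and 80.3, and the other 5 between 4.23 and 21.4, with healthy and arthritic mice in both sets.

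Il1r2, the decoy receptor gene, stood at 44.6, 14.6, 67.4 and 46.9 scaled SPM in the healthy mice. In the arthritic mice it stood at 39.9, 35.2, 75.8, 102 and 32.8, highest in mouse 5. Before scaling mouse 4 was highest, at 66.3 SPM, with mouse 5 at 56.7. The columns of mouse 5 were 86.7% granulocytes, and the part of this share in its level was not tested. The groups overlapped, and the log2 difference was 0.42 ± 0.46 (limma adjusted p = 0.649). Il1r2 was also higher in the 4 mice rich in hemoglobin, from 46.9 to 102 scaled SPM against 14.6 to 44.6. Without scaling the ranges overlapped, at 37.5 to 66.3 and 18.5 to 56.6 SPM.

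Il1rap, the accessory chain of the receptor, stood at 4.70, 9.23, 25.3 and 6.69 scaled SPM in the healthy mice, while the arthritic mice spanned 9.36 to 14.7. The arthritic values lay inside the healthy range, and the log2 difference was 0.30 ± 0.46 (limma adjusted p = 0.752). Il1r1, the signalling receptor, gave 5 units in all healthy mice together and 156 in the arthritic mice. Its level was 0 to 6.69 scaled SPM in healthy and 0.883 to 10.7 in arthritic mice (two-sided exact permutation p = 0.413, n = 4 and 5).

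Il1a, the other ligand, was at 0 units in every healthy mouse and at 5, 1, 10, 4 and 4 units in arthritic mice 1, 3, 4, 5 and 6. The groups therefore did not overlap, and the two-sided exact permutation test gave 0.0159, the smallest p that 4 against 5 mice allow. A count of 0 allows up to 8.93, 1.46, 9.06 and 5.35 unscaled SPM in healthy mice 1 to 4, taking 3 units as the limit (counting error only). The arthritic levels were 0.0812 to 1.11 unscaled SPM, under each of these limits. After scaling the limits were 7.04, 1.15, 12.6 and 6.69, so arthritic mouse 4, at 1.27, lay above the limit of healthy mouse 2 and under those of the other 3, and the other arthritic mice, at 0.0612 to 0.796, lay under all 4. These limits leave out the counting error of the arthritic values, such as that of the 10 units of arthritic mouse 4. A difference in Il1a was thus not detectable at this depth.

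**Figure D2:**
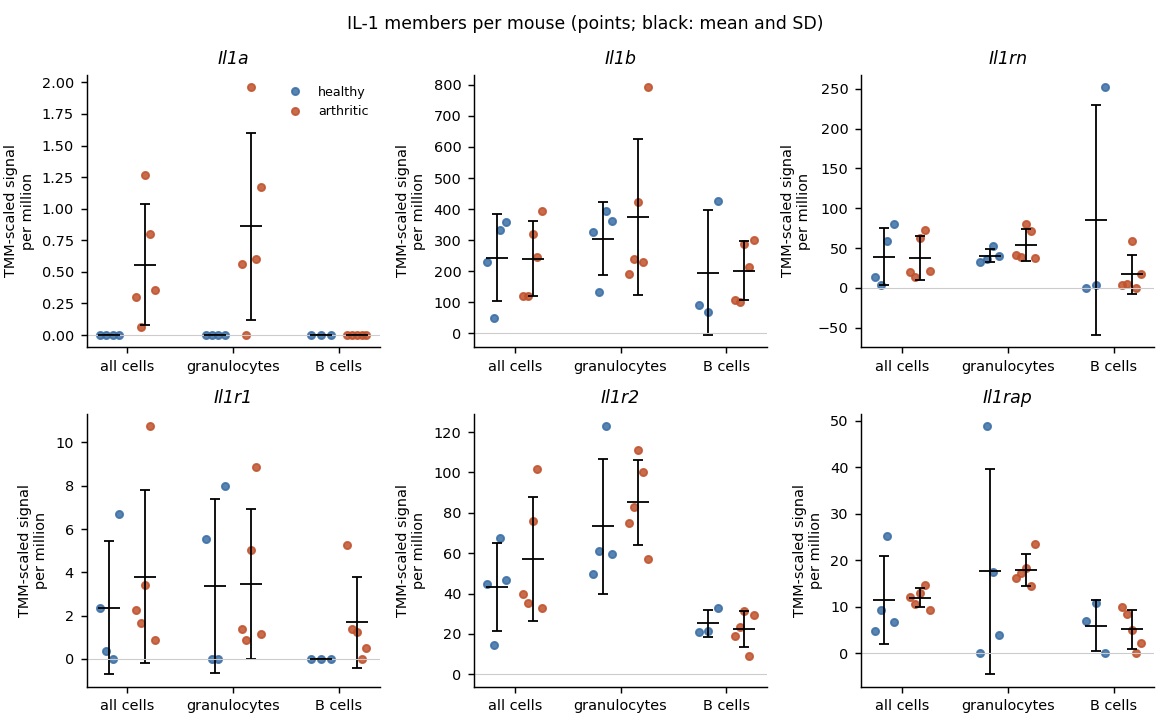
Scaled SPM (y axes, a panel for each member) in healthy and arthritic mice over all cells, in granulocytes and in B cells, with points for mice and black marks for the mean and SD. The groups overlap in every panel and class except for Il1a over all cells, where the healthy mice are all at 0 units.

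Within the class deposited as granulocytes, the question was whether the members differ when other cells are set aside. No member was called there either. There 52 of 7935 genes (0.655%) were called, 46 upward and 6 downward in arthritis, and 1712 at an unadjusted p under 0.05, of which none was a member. This count rested on single mice: it was 243 to 883 without any 1 of the healthy mice, 172 without arthritic mouse 6, and 0 to 3 without any other arthritic mouse. The comparison rests on 13, 5, 11 and 20 columns of the healthy mice, 9 of these 49 identical to an arthritic column, and on 249 to 489 columns of each arthritic mouse.

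Granulocyte Il1b stood at 325, 134, 395 and 363 scaled SPM in healthy mice 1 to 4. It stood at 190.2, 241, 424, 229 and 793 in arthritic mice 1, 3, 4, 5 and 6. Arthritic mouse 6 was highest, and 3 of the other 4 arthritic mice were below 3 of the 4 healthy mice. Mouse 6 also had the highest recorded disease stage, but mouse 3, at stage 2, stood below mouse 4, at 1.5. A link with stage was not tested. The log2 difference was 0.20 ± 0.44 (limma adjusted p = 0.797), and without arthritic mouse 6 it was -0.01 (adjusted p = 0.980). The median over all tested genes was 0.53.

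The high Il1b of arthritic mouse 6 was spread over its columns. Il1b gave signal in 96.4% of its 249 granulocyte columns, with a median of 7 units per column. In the other arthritic mice the share was 64.0% to 85.6% and the median 1 to 4 units. The tenth of columns with most Il1b held 37.9% of its signal in mouse 6 and 35.4% to 49.1% in the others.

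Marker levels differed between these mice too. The 12 neutrophil markers, all present in each arthritic mouse, summed to 64417 SPM in the granulocytes of mouse 6, the lowest of the arthritic mice, whose range reached 331063. The 12 monocyte and macrophage markers, also all present, summed to 2715 SPM in mouse 6, the highest, against 581 to 1496 in the other 4. In the healthy mice the neutrophil sum was 13813, 131520, 13934 and 17016 SPM, and the monocyte sum 726 to 1610, with Fcgr1 at 0 in mice 1, 2 and 3, Adgre1 also in mouse 2 and C1qa also in mouse 3. The granulocyte columns of mouse 6 were also ranked by the monocyte and macrophage markers and split at the middle. Il1b stood at 821 SPM in the columns rich in these markers and at 1337 in those poor in them. The part of other cell types in the high Il1b of mouse 6 was not tested.

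After scaling, the decoys were not high in the granulocytes of mouse 6. Granulocyte Il1rn stood at 33.1, 36.6, 52.7 and 39.9 scaled SPM in healthy and at 41.9, 39.2, 80.7, 71.4 and 37.7 in arthritic mice. Arthritic mice 4 and 5 were above every healthy mouse and the other 3 lay within the healthy range. This order depended on scaling. Before it, arthritic mice 4 and 6, at 72.6 and 52.1 SPM, were above the healthy mice, at 33.2 to 50.0. Arthritic mouse 5, at 44.3, was then not. The log2 difference was 0.36 ± 0.32 (limma adjusted p = 0.501).

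Granulocyte Il1r2 stood at 49.7, 61.1, 123 and 59.8 scaled SPM in healthy and at 75.2, 82.8, 111, 100.2 and 57.3 in arthritic mice. Healthy mouse 3 was above all others, and 4 of 5 arthritic mice were above the other healthy mice. The log2 difference was 0.27 ± 0.31 (limma adjusted p = 0.600). When columns identical between mice were left out it was 2.35 (adjusted p = 0.200): healthy mouse 2 then kept 2 granulocyte columns, with 0 units of Il1r2.

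Set against Il1b in the same granulocytes, the decoys were lowest in arthritic mouse 6. It held 4.76 units of Il1rn and 7.23 units of Il1r2 for every 100 units of Il1b. The other arthritic mice held 16.3 to 31.2 units of Il1rn and 26.1 to 43.8 of Il1r2, and the healthy mice 10.2 to 27.3 and 15.3 to 45.5. These ratios compare mice and not the abundance of the genes with each other, since transcript length is not accounted for, and no test was made of a single mouse.

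Il1rap in granulocytes ranged from 0 to 48.8 scaled SPM in the healthy mice, on 0 to 4 units each, and from 14.5 to 23.4 in the arthritic mice. The log2 difference of 1.18 ± 0.95 did not pass (limma adjusted p = 0.459). Il1r1 stood at 0 to 7.98 and 0.881 to 8.85 scaled SPM (two-sided exact permutation p = 0.698, n = 4 and 5). Il1a gave 0 units in healthy granulocytes and 20 in arthritic ones, 9 of them from mouse 4 (two-sided exact permutation p = 0.0794, n = 4 and 5).

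In the class deposited as B cells, which 3 healthy and 5 arthritic mice filled with at least 5 columns, limma called 0 of 9585 genes (0%), with 677 at an unadjusted p under 0.05, and 59 without healthy mouse 2. Of the healthy B cell columns, 32 of 136 were identical to an arthritic column. Il1b stood at 91.1, 68.9 and 428 scaled SPM in healthy mice 1, 2 and 4 and at 107, 100.4, 286, 214 and 301 in the arthritic mice (log2 difference 0.38 ± 0.61, limma adjusted p = 0.756). Healthy mouse 4 was the highest of all 8.

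Healthy mouse 4 also held most Il1rn in this class, 252 scaled SPM on 23 units, against 0 and 3.93 in healthy mice 1 and 2. The arthritic mice held 4.28, 4.53, 59.0, 0 and 17.8, with mouse 4 highest. The log2 difference of Il1rn was -0.43 ± 1.76 (limma adjusted p = 0.911), and without healthy mouse 4 it was 1.94 (adjusted p = 0.894). Erythroid markers summed to 404887 SPM in the B cells of healthy mouse 4 and 187468 in arthritic mouse 4, the highest of the 8 mice.

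Il1r2 in B cells was level, at 21.0 to 32.9 scaled SPM in healthy and 9.31 to 31.4 in arthritic mice (log2 difference -0.23 ± 0.60, limma adjusted p = 0.853). Il1a was at 0 units in all 8 mice, and Il1r1 at 0 units in the 3 healthy and at 0 to 5.27 scaled SPM in the arthritic mice. Il1rap ranged from 0 to 10.8 and from 0 to 9.88 scaled SPM.

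The next question was which blood classes carry the members. The method that named the classes, not stated in the labels, may itself have used these genes, so the order of classes is a description with no test. Granulocytes held 48.8% of all blood signal but 79.2% of the Il1rn, 76.5% of the Il1r2, 66.7% of the Il1b and 63.0% of the Il1rap units. Of the 24 units of Il1a, 20 lay in granulocytes and 1 in foxP3 T cells. The rest lay in the few blood columns deposited under other class names, such as macrophages, mast cells and osteoblasts. Those columns are not given by class here.

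As SPM, Il1b was highest in the myeloid dendritic class. In the 4 arthritic mice with at least 5 such columns it stood at 982, 1030.1, 457 and 760.0 SPM (mice 1, 3, 4 and 6), with signal in 95.1% of all 122 columns of the class. Granulocytes of the 5 arthritic mice followed at 142 to 1095 (median 255), then B cells at 112 to 321 (median 235) and foxP3 T cells at 51.1 to 266 (mouse 6 highest). CD4 T cells at 27.0 to 66.6 and common myeloid progenitors at 21.7 to 35.8 were lowest. Dendritic columns were above granulocytes within mice 1, 3 and 4 but not within mouse 6, and the ranges of granulocytes and B cells overlapped.

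Myeloid markers were also present in the B cell class. The 12 neutrophil markers summed to 4306 SPM and the 12 monocyte and macrophage markers to 292, and all 24 were detected in 3 of the 5 arthritic mice. When the B cell columns of each arthritic mouse with at least 10 of them were ranked by their neutrophil markers and split at the middle, Il1b was higher in the upper-ranked columns of 4 of 4 mice. The values were 67.4 and 156, 41.1 and 194, 57.7 and 434, and 128 and 560.4 SPM in the lower- and upper-ranked columns of mice 1, 3, 4 and 6. In the 2 healthy mice with enough columns, Il1b stood at 47.2 and 94.3 in mouse 2 and was level in mouse 4, at 267 and 266, the mouse with the highest B cell Il1b. The T cell classes were not split.

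Il1rn and Il1r2 were concentrated in the same myeloid classes. Il1rn stood at 41.5 to 72.6 SPM in granulocytes of arthritic mice and at 8.65 to 69.9 in dendritic columns, where mice 4 and 6 were high and mice 1 and 3 low. It was at or below 24.96 in CD4 T cells, foxP3 T cells and progenitors, and at 0 to 53.0 in B cells, where mouse 4 was highest. Il1r2 stood at 62.1 to 99.7 SPM in granulocytes and 52.9 to 143 in dendritic columns, ranges that overlapped. Every other class of every arthritic mouse with at least 5 columns stood at 31.3 or below.

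The receptor chains had another order. Il1r1 was highest in common myeloid progenitors, at 3.41 to 16.2 SPM in 4 arthritic mice, against 0.934 to 5.49 in granulocytes and 0 to 9.86 in the other classes. These ranges overlapped, and the progenitor values rest on 3 to 10 units each. In arthritic mouse 1 progenitors, at 3.41, stood below B cells, at 5.61 on 16 units, and dendritic columns, at 4.32 on 1 unit. Il1rap was spread over all classes, from 8.98 to 32.3 SPM in granulocytes and from 0 to 26.9 in progenitors.

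**Figure D3:**
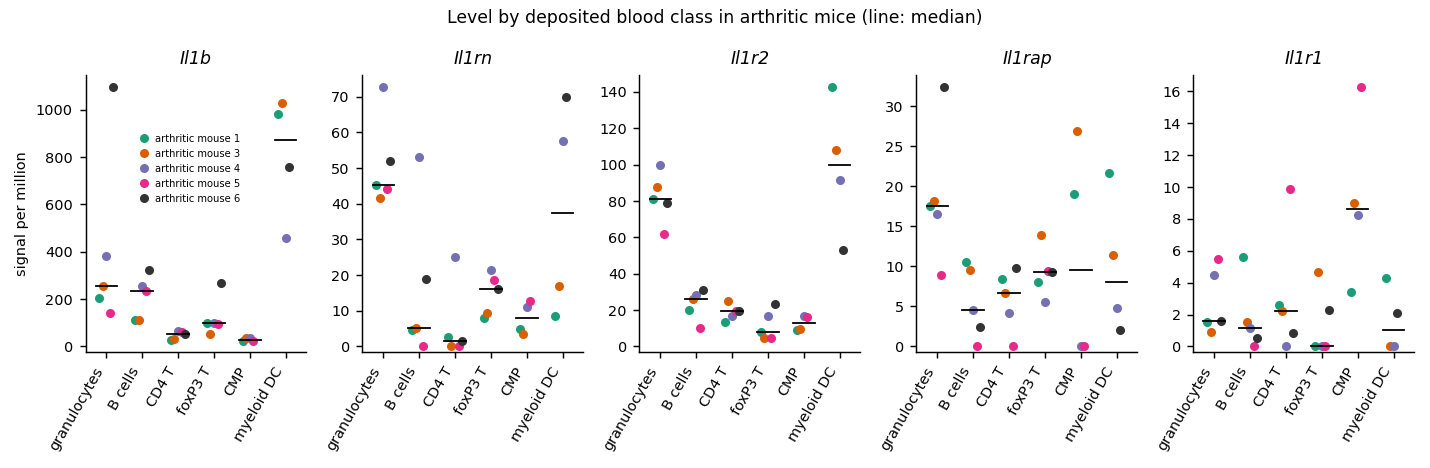
SPM (y axes) of 5 members in the 6 blood classes with most columns (x axes: CMP, common myeloid progenitors, and DC, dendritic cells). There is 1 point for each arthritic mouse that has at least 5 columns, and a line at the median. Il1b is highest in dendritic columns apart from the granulocytes of mouse 6, and Il1r2 is above 50 only in granulocytes and dendritic columns. The median of Il1r1 is highest in progenitors, which in mouse 1 lie below B cells and dendritic columns.

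Granulocyte columns were then ranked within each arthritic mouse by 4 secondary granule genes (Ltf, Camp, Ngp and Lcn2), which mark immature neutrophils, and split at the middle. Il1b was higher in the lower-ranked columns of 5 of 5 arthritic mice. The values were 349 and 62.3, 424 and 79.4, 558 and 235, 187 and 102, and 1275 and 953 SPM in the lower- and upper-ranked columns of mice 1, 3, 4, 5 and 6. The mean log2 difference, upper minus lower, was -1.48 ± 0.92 (SD, n = 5). The side was the same in 5 of 5 mice when the 4 genes were taken out of the totals.

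Il1r2 went the other way. It was higher in the upper-ranked columns of 4 of 5 arthritic mice, at 95.2, 144, 73.5 and 101 SPM against 78.3, 46.0, 49.6 and 52.02 in mice 3, 4, 5 and 6. Mouse 1 was level, at 80.9 and 82.1. Ranked by all 12 neutrophil markers, Il1r2 was higher in the upper-ranked columns of 5 of 5 arthritic mice, with a mean log2 difference of 1.15 ± 0.54 (SD, n = 5). Il1b was then higher in the lower-ranked columns of mice 1, 3, 4 and 5 and in the upper-ranked columns of mouse 6, at 753 and 1389 SPM.

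Il1rn was higher in the lower-ranked columns by granule genes in 4 of 5 arthritic mice, all but mouse 6, and each mouse kept its side with the granule genes out of the totals. The mean log2 difference was -0.18 ± 0.62 (SD, n = 5). By neutrophil markers it was higher in the lower-ranked columns in 3 of 5, and only 2 of 5 kept their side with the markers out of the totals.

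Ranked by the 12 monocyte and macrophage markers, the same granulocyte columns gave Il1b higher in the upper-ranked columns of arthritic mice 1, 3, 4 and 5, at 299, 388, 586 and 223 SPM against 112, 139, 232 and 73.7. Mouse 6 went the other way, at 821 and 1337. The mean log2 difference was 1.02 ± 0.97 (SD, n = 5). Il1rn and Il1r2 were likewise higher in the upper-ranked columns of these 4 mice and lower in mouse 6, where Il1r2 stood at 31.4 and 121 SPM. In arthritic mice 1, 3, 4 and 5, but not in mouse 6, granulocyte columns richer in these markers of another cell type held more Il1b. The part of these markers in the split by granule genes was not tested.
In the 3 healthy mice with at least 10 granulocyte columns, each side held 5 to 10 columns. There Il1b was higher in the lower-ranked columns by granule genes in 2 of 3 and Il1r2 in 3 of 3. By neutrophil markers Il1b and Il1r2 were each higher in the lower-ranked columns of 2 of 3. By monocyte and macrophage markers Il1b was higher in the upper-ranked columns of 2 of 3 and Il1rn of 3 of 3. The splits and the granule genes were chosen with results of these data known, the columns of a mouse share its library, and no test was made.

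**Figure D4:**
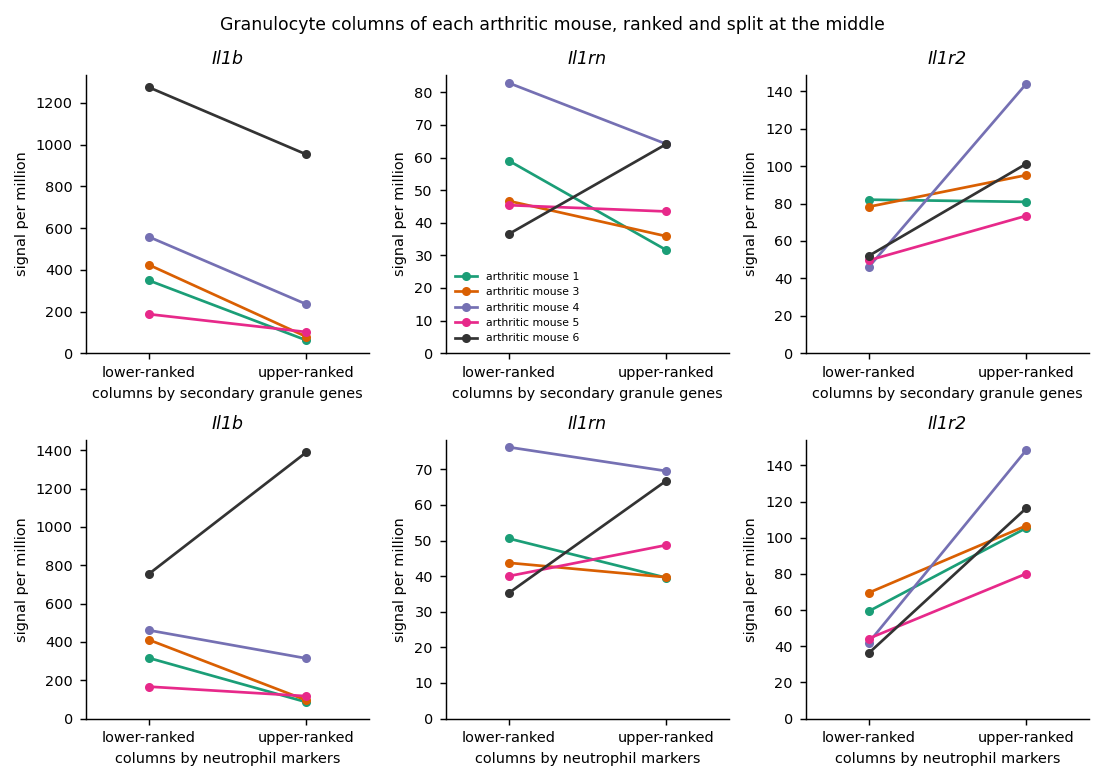
SPM (y axes) of Il1b, Il1rn and Il1r2 in granulocyte columns of 5 arthritic mice, ranked by 4 secondary granule genes (top row) or 12 neutrophil markers (bottom row) and split at the middle, with a line for each mouse. Il1b falls towards the columns rich in granule genes in 5 of 5 mice, and Il1r2 rises towards those rich in neutrophil markers in 5 of 5.

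Genes with a similar pattern were sought over 38 sums of a class in a mouse, among 5385 named genes with a mean of at least 20 SPM, on log2(SPM + 1). Il1b was most like Serpinb10 (Pearson r = 0.904), Clec7a, the beta-glucan receptor dectin-1 (0.898), and Cd300a, an inhibitory receptor of leukocytes (0.879). Il1r2 was most like Spi1, the gene of the myeloid transcription factor PU.1 (0.868), the lysozyme gene Lyz1 (0.865) and Msrb1, a methionine sulfoxide reductase (0.865). Il1rn was most like Gda, guanine deaminase (0.812), Fcgr3, a low-affinity IgG receptor (0.790), and Gcnt2 (0.764). Among the members, r was 0.722 between Il1b and Il1r2, 0.585 between Il1b and Il1rn, and 0.477 between Il1rn and Il1r2. The sums share mice, depth and hemoglobin content, so these coefficients are descriptions.

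Genes around the members were taken from 4 lists. Of 23 genes of IL-1 signal transduction, 19 were tested over all cells and 0 called. Their median log2 difference was 0.25, beside 0.26 for all genes. Irak4, the kinase that MyD88 recruits, stood at 8.53 ± 5.64 scaled SPM in healthy and 21.6 ± 4.64 in arthritic mice (SD, n = 4 and 5; log2 difference 1.39 ± 0.40, limma adjusted p = 0.227). Tollip, an adaptor of the pathway, stood at 5.89 ± 5.17 and 19.7 ± 3.39 (log2 difference 2.08 ± 0.65, adjusted p = 0.261). Chuk, a kinase of the NF-kB pathway, stood at 15.3 ± 13.1 and 31.8 ± 4.37 (log2 difference 1.32 ± 0.45, adjusted p = 0.288). Nfkb1, a subunit of NF-kB, stood at 81.3 ± 13.6 and 58.3 ± 10.1 (log2 difference -0.47 ± 0.21, adjusted p = 0.368). In granulocytes 0 of 18 were called (median 0.60, all genes 0.53), and in B cells 0 of 18 (median 0.44, all genes 0.56).

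Of the other IL-1 family ligands and receptors, 8 were in the data, 5 were tested over all cells and 0 were called. Their median was -0.12, beside 0.26 for all genes. Il1f9, which encodes the ligand IL-36 gamma, stood at 6.83 ± 4.73 scaled SPM in healthy and 30.7 ± 23.9 in arthritic mice (log2 difference 1.90 ± 0.57, limma adjusted p = 0.246). Il18rap, the accessory chain of the IL-18 receptor, stood at 7.75 ± 5.81 and 19.1 ± 9.87 (log2 difference 1.28 ± 0.56, adjusted p = 0.367). The 2 other receptor genes with the smallest p had negative differences, Il1rl1 of the IL-33 receptor at -0.68 ± 0.65 (adjusted p = 0.602) and Il18r1 at -0.42 ± 0.40 (adjusted p = 0.608). In granulocytes 0 of 5 were called (median 0.32, all genes 0.53). The 1 tested in B cells, Il18r1, was not called either (log2 difference -0.50, median of all genes 0.56).

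The list of IL-1 maturation and release held the sole called gene of the 4 lists. Dfna5, which encodes gasdermin E, a pore-forming protein, was higher in arthritic granulocytes, at 8.62 ± 2.77 and 44.7 ± 11.6 scaled SPM (log2 difference 2.25 ± 0.39, limma adjusted p = 0.0342). Its 5.52 to 12.2 in healthy and 31.3 to 55.4 in arthritic mice did not overlap. The healthy values rest on few units of signal. In granulocytes 3 units equal 16.6, 36.6 and 26.3 scaled SPM in healthy mice 1, 2 and 3, above every healthy Dfna5 value. In healthy mouse 4 they equal 11.9646. The 36.6 of healthy mouse 2 lies within the arthritic range. The part of counting error in this gap was not tested. The call held in 12 of 23 alternatives. Leaving out arthritic mouse 1, 3, 4 or 5 gave an adjusted p of 0.148, 0.147, 0.0856 and 0.0878. The call was also lost with scaling by the total (limma adjusted p = 0.150), factors from the median of ratios (0.0667) and thinning (0.752). It was lost too with columns shared between mice left out (0.0620) and with hemoglobin share as a covariate (0.121). The same held for the S number in the sample descriptions, of unstated meaning (0.0538), and the replicate block (0.0583). The 8 erythroid markers, all present in each mouse, summed to 216349 to 531738 SPM in healthy granulocytes and 7290 to 501402 in arthritic ones, and with hemoglobin share in the fit the Dfna5 difference was 2.24 ± 0.44. Of this list 1 of 15 genes was called in granulocytes (median 0.65, all genes 0.53), where 0.655% of all tested genes were called. The counts were 0 of 14 over all cells (median 0.34, all genes 0.26) and 0 of 11 in B cells (median 0.69, all genes 0.56). Over all cells Dfna5 was not called, at 6.73 ± 3.86 and 27.3 ± 14.9 scaled SPM (log2 difference 1.89 ± 0.48, adjusted p = 0.199). The protease genes Prtn3 and Ctsg stood at 50.9 ± 39.4 and 143 ± 91.3 (1.55 ± 0.83, adjusted p = 0.406) and at 20.4 ± 17.9 and 58.1 ± 38.6 (1.57 ± 0.91, adjusted p = 0.427). Inflammasome sensor Aim2 stood at 75.6 ± 21.4 and 54.7 ± 15.02 scaled SPM over all cells (log2 difference -0.46 ± 0.26, adjusted p = 0.423).

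Of the IL-1 response genes, 13 were tested over all cells and 0 called, with a median of 0.40 beside 0.26 for all genes. Lcn2, a neutrophil granule protein gene, had the smallest p of the list, at 56.1 ± 23.4 and 788 ± 445 scaled SPM (log2 difference 3.53 ± 0.61, limma adjusted p = 0.0791). Cxcl2, a chemokine that draws neutrophils, stood at 11.5 ± 7.61 and 40.4 ± 18.9 scaled SPM (log2 difference 1.80 ± 0.45, limma adjusted p = 0.185). Nfkbiz, an inducible co-regulator of NF-kB, stood at 21.4 ± 7.58 and 47.9 ± 8.08 (log2 difference 1.17 ± 0.28, adjusted p = 0.150). Sod2, a mitochondrial superoxide dismutase, stood at 33.8 ± 2.40 and 49.1 ± 5.80 (log2 difference 0.52 ± 0.20, adjusted p = 0.323). In granulocytes 0 of 13 were called (median 0.88, all genes 0.53), with 12 of 13 on the positive side beside 77.3% of all tested genes. In B cells 0 of 11 were called (median 0.81, all genes 0.56), with 10 of 11 positive beside 71.4% of all.

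The last comparison set the blood beside the joint table, whose columns name none of the 9 mice and give 1 pooled value for each class, with no test. Of its columns used, 3825 were identical to another. Joint levels and blood levels come from separate tables, and neither is TMM-scaled here.

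Il1a, barely present in blood, was found in the joint in the class deposited as macrophages, at 57.0 SPM on 47 units, with signal in 66.7% of its 66 columns. In joint granulocytes 1.60% of 6487 columns held Il1a, with a median column total of 13115 units against 10590 in the macrophages. Il1b and Il1rn were also highest in this class, at 443 and 487 SPM with signal in 100% of columns, against 179 and 47.4 SPM in joint granulocytes. Il1r1 gave 0 units in macrophages, which allows up to 3.64 SPM on a limit of 3 units.

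The macrophage class takes its deposited name from bone marrow macrophages after LPS, a stimulus known to induce Il1a, Il1b and Il1rn. Its 66 columns, all named Sick, held 40 distinct profiles. The 12 monocyte and macrophage markers summed to 8108 SPM, with only Ear2 at 0, and the 12 neutrophil markers to 13916, with Ly6g and Mmp9 at 0.

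Il1r1 was highest in the class deposited as osteoblasts, at 35.2 SPM on 30 units, with signal in 56.6% of 53 columns. The next was common myeloid progenitors at 11.8, and granulocytes stood at 5.90. The osteoblast columns, again all named Sick, held 16 distinct profiles, and with each profile used once Il1r1 stood at 44.3. The 5 osteoblast markers summed to 25693 SPM, none at 0, and the 7 fibroblast markers to 101171, with Pdgfrb at 0. Il1a was at 0 units there.

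Joint and blood granulocytes both held all 6 members. Il1b stood at 179 SPM in the joint and 311 in blood, Il1r2 at 113 and 79.5, Il1rn at 47.4 and 50.0, Il1rap at 13.4 and 16.1, and Il1r1 at 5.90 and 3.24. In the joint, the columns named Sick stood above those named Healthy for the decoys, at 122 and 83.1 SPM for Il1r2 and at 52.2 and 32.8 for Il1rn. Il1r1 went the other way, at 5.26 in Sick and 7.88 in Healthy columns on 389 and 189 units, and at 5.36 and 6.87 with identical columns used once. Il1b was close, at 182 and 168, with signal in 71.4% and 70.8% of columns. Of the 1742 Healthy granulocyte columns, 455 were identical to a Sick column. With identical columns used once, Il1r2 stood at 121 and 87.2 and Il1rn at 53.5 and 35.2. These are single pooled values without replicates.

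**Figure D5:**
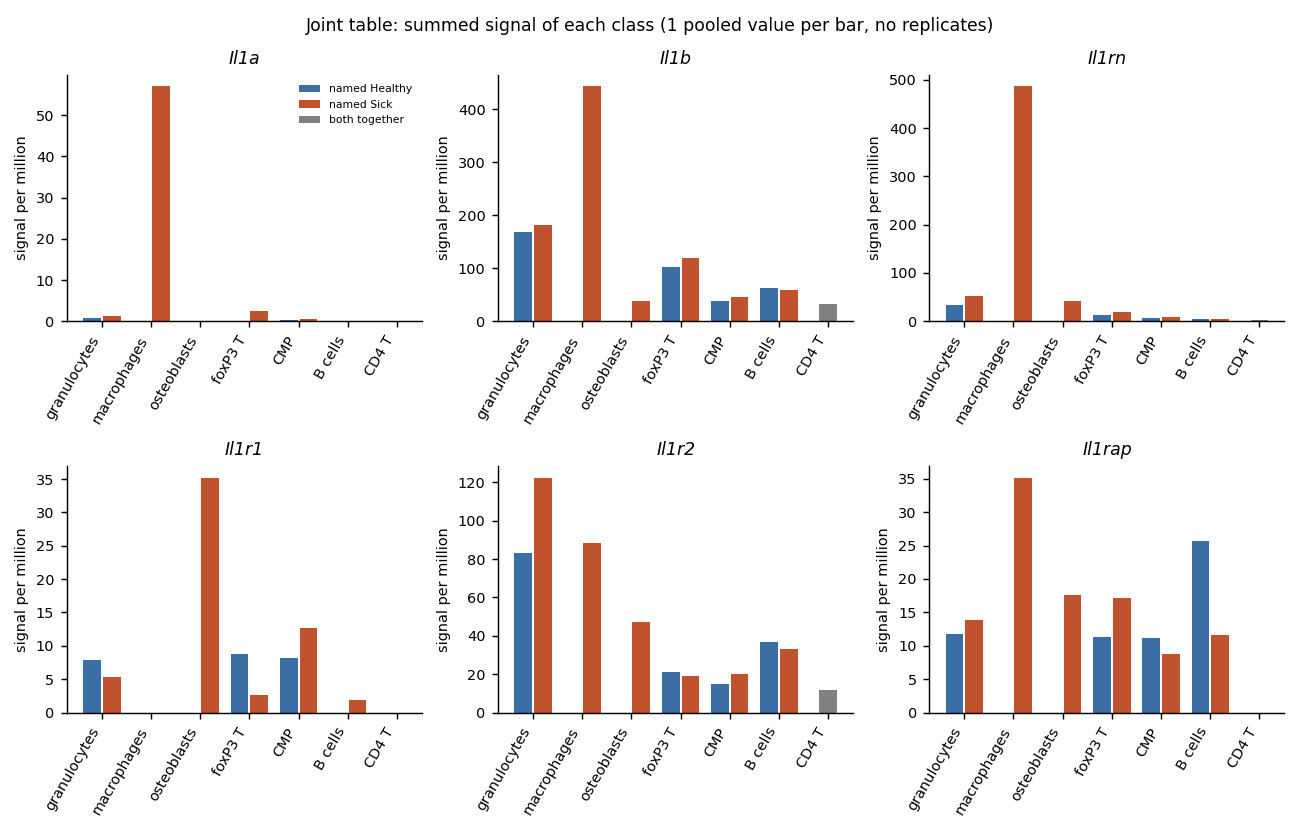
SPM (y axes, bars from 0) of the 6 members in 7 joint classes (x axes; CMP, common myeloid progenitors), summed over the columns named Healthy or Sick, or over both for CD4 T cells, where each set held 14 columns. Il1a, Il1b and Il1rn are highest in macrophages, Il1r1 in osteoblasts and Il1r2 in granulocytes named Sick, and no bar has a replicate.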

How the data were processed

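Signal values, deposited by the authors as whole numbers per gene and barcode column, came from Seq-Well libraries run through the Drop-seq core computational protocol, per the labels, on GRCm38.p5, per the submitters' processing notes. For aligner version, cell filter and class calling: not given in the sources used here. Whether a column is a single cell is not stated, so a count test foreseen for these values was replaced by limma.

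Columns were summed by class and mouse. Sums were scaled to SPM (signal in each 1000000 units) with TMM factors (trims of 30% and 5%). A gene entered the fit if the mice reaching 10 scaled SPM numbered no fewer than the mice in the smaller group. Then log2(scaled SPM + 1) was compared with limma 3.58.1 (with a trend in the variance) in R 4.3.3 at an adjusted p under 0.05. Only mice with at least 5 columns were compared. The other steps used Python 3.11.15, numpy 2.4.6, pandas 2.3.3, scipy 1.17.1 and matplotlib 3.10.9, and the fit was tested on simulated data. Members outside the fit had exact permutation tests. Identical columns between mice make the mice less independent than the p-values assume, and nothing further is stated on whether a mouse is 1 library.

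All 6 members are named in each comparison, up to 4 genes of a list by smallest p over all cells, and the 3 genes most like a member with a mean of at least 20 SPM. Members and lists were chosen with earlier results of these data known. Gene positions are from GENCODE on GRCm38. Of the joint columns, 49 were not used. Alternatives varied the scaling, filter, pseudocount, weights, identical columns, depth, hemoglobin, replicate block and single mice.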

Additional observations from a re-analysis of the deposited data

Results flagged for a closer look

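In 3 of 27 groups of 4 or 5 mice, 1 mouse stood apart from the rest of its group by Dixon's test, which chance does in about 1 of 20 groups. Il1r2 in granulocytes of healthy mouse 3 stood at 123 scaled SPM on 14 units, and the gap to the next healthy mouse was 0.844 of the range (critical value 0.829). Il1r1 over all cells of arthritic mouse 5 stood at 10.7 scaled SPM, with a gap of 0.743 of the range (critical value 0.71). Il1r1 in B cells of arthritic mouse 1 stood at 5.27 scaled SPM on 16 units, with a gap of 0.735 of the range.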

How the results depend on the processing

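No member that entered the main fit of a comparison was called there in any alternative run. The lowest adjusted p was 0.0928, for Il1rap in granulocytes without healthy mouse 2 (limma log2 difference 2.18). Alternative fits of Il1a, of Il1r1 and, in B cells, of Il1rap were not examined. Counts of called genes moved widely. Over all cells, 4 became 19 with scaling by the total, 0 with no filter and 7 with a pseudocount of 5. The count was 0 with array weights, 10 without hemoglobin genes, 1 after thinning and 73 with hemoglobin share as a covariate. It was 0 with the S number as a term and 0 to 64 leaving out 1 mouse. The S number stands in the sample descriptions, and its meaning is not stated. In granulocytes, 52 became 2 with scaling by the total, 5 with factors from the median of ratios, 2801 with no filter, 175 with a pseudocount of 5, 283 with array weights, 282 without columns shared between mice, 113 with the mean over columns, 282 without hemoglobin genes, 7 after thinning, 0 with hemoglobin share, 32 with the S number, 883 with at least 10 columns, and 0 to 883 leaving out 1 mouse. In B cells 0 became 0 to 59 leaving out 1 mouse. The causes were not tested.

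With the replicate number as a block, 40 genes were called over all cells, 190 in granulocytes and 13 in B cells. Deviations of the mice numbered 4 correlated at 0.30, 0.18 and 0.19 in the 3 comparisons, those numbered 3 at -0.29 over all cells and -0.063 in granulocytes, and those numbered 1 between -0.008 and 0.014. Since not every pair was over 0.1 and no label ties the numbers, the mice were not treated as paired, and whether the mice numbered 4 share more than a number was not tested. Under this replicate block the log2 difference of Il1b was -0.88 over all cells, -0.28 in granulocytes and -0.039 in B cells, that of Il1rn -0.69 over all cells and 0.30 in B cells, and that of Il1r2 -0.16 over all cells and 0.034 in B cells.

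Members changed sign elsewhere too. Il1b over all cells was -0.18 with array weights and -0.085 after thinning, and Il1b in granulocytes -0.47 with array weights. Il1rn in B cells was 1.60 with array weights, 0.047 without shared columns and 1.55 with hemoglobin share. Il1r2 in B cells was 0.046 with array weights and 0.11 with at least 10 columns. Leaving out 1 mouse gave Il1b -0.53 to 0.44 over all cells, -0.015 to 0.51 in granulocytes and -0.12 to 1.25 in B cells, Il1rn -0.45 to 0.91 over all cells and -1.96 to 1.94 in B cells, and Il1r2 -0.053 to 0.69 over all cells and -0.38 to 0.15 in B cells. Of 180 joint values, 172 stayed within 1.5 times. The healthy mice together gave 0 units of Il1a and 5 of Il1r1, which limits any comparison of these 2 genes.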
